A study of Mus musculus with 28 samples.

Results

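The cytosolic ribosomal protein genes encode the proteins of the cytosolic ribosome. They were taken as the protein-coding genes whose GENCODE M21 symbol is Rpl or Rps followed by a digit, or Rplp0, Rplp1, Rplp2 or Rpsa, leaving out names that carry a pseudogene number and the Rps6k kinases; gene positions are from that annotation (GRCm38.p6). Of 86 such genes in the annotation, 85 of the 30608 genes in the table were members, and Rpl10l was not analysed here. The symbol rule also admits Rps19bp1, a protein that binds a small subunit protein and is no ribosome component, and it leaves out Fau and Rack1, which yield ribosome components. CTLL2, a mouse cytotoxic T-cell line of C57BL/6 origin that grows on interleukin-2, had been kept in complete medium for 24 h and was then given fresh complete medium, alone or with exosomes (small secreted vesicles) of B16F0 mouse melanoma cells in PBS at 0.2 mg/ml. The 9 groups were untreated cells at 0 h (n = 4) and at 0.5, 2, 4 and 8 h (n = 3 each), and exosome-treated cells at 0.5, 2, 4 and 8 h (n = 3 each), 28 libraries in all. All groups come from 1 line, so the replicates, which the design calls biological, are samples of the same cells.

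A ribosome holds 1 copy of nearly every one of these proteins, and the acidic stalk proteins Rplp1 and Rplp2 are the known exception. Their messengers start with a short run of pyrimidines, the terminal oligopyrimidine (TOP) motif, through which mTOR signalling sets how much of them is translated in growing T cells. Most of the genes also have many processed pseudogenes, near-copies of the messenger inserted elsewhere in the genome.

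The TOP start is the feature these genes are best known to share, and a few start sites are shown to let it be seen. Each line holds 15 bases before and 15 bases from the RefSeq start (GRCm38.p6), and capitals mark a C at the start followed by at least 4 bases each C or T.
Rpl35, chr2:39005117-39005146, minus strand: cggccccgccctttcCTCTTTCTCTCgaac
Rpl38, chr11:114668565-114668594, plus strand: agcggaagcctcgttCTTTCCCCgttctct
Rps10, chr17:27635230-27635259, minus strand: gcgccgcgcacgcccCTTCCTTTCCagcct
Rps6, chr4:86857353-86857382, minus strand: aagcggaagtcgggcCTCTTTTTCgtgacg
Rpl4, chr9:64173372-64173401, plus strand: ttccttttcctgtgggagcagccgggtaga
Rps3, chr7:99483695-99483724, minus strand: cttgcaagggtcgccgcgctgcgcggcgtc
The first 4 have such a run and the last pair, both among the members with the highest levels per length, do not at the annotated base. RefSeq promoters were found for 65 of 85 members, and 14 of them had the run, 21.5% against 3.01% of all 27025 genes in that table. No match says only that these letters are not at the annotated base, since annotated and used starts can differ by a few bases. In the comparison of untreated cells at 8 h and 0 h described below, the 14 members with the run had a median log2 fold change of 0.53 and the 49 tested without it 0.46.

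Libraries ranged from 6072984 to 24085812 recovered reads. T-cell genes were abundant in all 28 libraries (Cd3e between 2437 and 4047 and Gzmb between 30625 and 54827 normalized counts), although Cd8a was low (46.8 to 162). The sample descriptions place 9 libraries, 1 per group, in batch 1 and the other 19 in batch 2. The 7 melanocyte markers summed to 57.3 to 157 normalized counts in the 12 exosome-treated libraries, with 5 to 7 of them above 0, and to 7.45 to 20.7 in the 16 untreated ones, with 2 to 5. Levels in treated cells may thus include RNA carried by exosomes, which was not measured apart.

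Levels of members differed widely even after division by transcript length. Among the 83 members that reached 10 normalized counts in at least 3 libraries, the mean level per kilobase of transcript had a median of 1018 normalized counts and ran from 25.8 for Rpl23a to 28723 for Rpl32. The 4 highest were Rpl32, Rpl8 (22782), the stalk protein gene Rplp1 (16837) and Rpl4 (15402). The 5 lowest of the 85 were Rpl39l (0.174), Rpl3l (1.94), Rpl23a, Rpl24 (37.3) and Rps6 (92.5), the last a small subunit protein known as a target of S6 kinase. The 5 genes with the most reads held 39.4% of all member signal. This spread went with sequence that is shared between genes.

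To describe that sharing, the principal transcript of each member was read in windows of 50 bases, the read length. Each window was looked for in every other GENCODE M21 transcript, on both strands. Windows were taken singly although reads were paired, so the other read of a pair was not considered. Sharing with at least 1 annotated pseudogene was found for 81 of 85 members, with a median of 8 pseudogenes per member and up to 120 for Rpl7a. In 31 members no coding window was unique. These 31 had a median level of 347 normalized counts per kilobase (25.8 to 4687), and among them were Rpl23a, Rpl24, Rps6 and Rps27. The 39 tested members with some but under 50% unique coding windows had a median of 1284 (293 to 16837). The 13 tested members with 50% or more had a median of 8374 (434 to 28723), and their lowest was Rps19bp1, which is no ribosomal protein. Rps3 (91.9%) and Rpl8 (91.3%) had 8374 and 22782 per kilobase. Rpl41, the smallest protein of the ribosome, had a high level (4687 per kilobase) with no unique coding window, and Rpl22, with 69.0%, lay at 1059. How reads with several matches were counted is not given in the sources used here, so levels cannot be compared between members as transcript amounts, while changes between libraries compare each gene with itself.

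**Figure D1:**
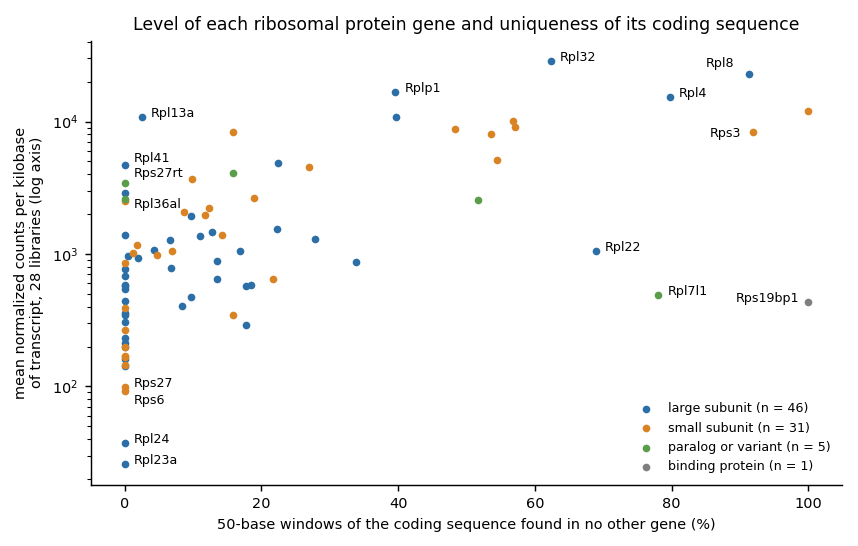
Mean normalized counts per kilobase of transcript over 28 libraries (vertical log axis) against the percentage of 50-base coding windows found in no other gene (horizontal axis), 1 point for each of the 83 members passing the filter, coloured by role. Members at 0% run from 25.8 to 4687, and the 13 at 50% or more from 434 to 28723.

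The pair of Rps27 and Rps27rt shows the same limit at the level of letters. Rps27rt (ENSMUSG00000050621.6, chromosome 9 from 114982366 to 114982739, minus strand) is a retrogene, an intronless copy, of Rps27 (ENSMUSG00000090733.6, chromosome 3 from 90212522 to 90213651, minus strand), and Rps27l (ENSMUSG00000036781.13, chromosome 9 from 66946086 to 66949516, plus strand) is a diverged gene of the same family. Their first 50 coding bases are printed to show where single reads could be told apart, with capitals for bases that differ from Rps27.
Rps27: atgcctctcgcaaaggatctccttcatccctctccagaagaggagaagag
Rps27rt: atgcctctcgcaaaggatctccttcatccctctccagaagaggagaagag
Rps27l: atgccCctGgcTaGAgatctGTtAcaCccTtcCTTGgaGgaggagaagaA
Rps27 and Rps27rt did not differ at any of 252 coding bases, while Rps27l differed at 60. The table put 1293 ± 703 normalized counts (SD, n = 28) on Rps27rt and 34.0 ± 10.9 on Rps27, which was 3458 against 98.5 per kilobase. Only 1.35% of the windows of Rps27 and 8.92% of those of Rps27rt were unique, so the split between this pair is uncertain. Rps27l, with 51.7% unique coding windows, was at 2538 per kilobase.

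Rpl36a (ENSMUSG00000079435.9, chromosome X from 134585654 to 134588062, plus strand) and its copy Rpl36al (ENSMUSG00000049751.6, chromosome 12 from 69182731 to 69184083, minus strand) differ at 39 of 318 coding bases, and their first 50 are shown in the same way, with capitals where Rpl36al differs.
Rpl36a: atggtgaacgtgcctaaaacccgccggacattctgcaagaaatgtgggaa
Rpl36al: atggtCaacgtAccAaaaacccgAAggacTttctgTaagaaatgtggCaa
Rpl36al was at 2588 and Rpl36a at 234 normalized counts per kilobase, and neither had a unique coding window. The gene sharing most windows was not the other of the pair. It was Rpl36a-ps2 for Rpl36a (272 windows) and Gm49383 for Rpl36al (284 windows). Rpl22 and Rpl22l1, a pair known for cross-regulation in T-lineage cells, were at 1059 and 4063 per kilobase. Rpl7l1, a Rpl7 relative known from ribosome assembly, was at 491 against 4839 for Rpl7. The striated muscle paralog Rpl3l reached at most 12.1 normalized counts (exosome 0.5 h replicate 3) and the testis paralog Rpl39l at most 1.43, in exosome 2 h replicate 2, and neither passed the filter. The 4 highest values of Rpl3l, 12.1, 9.71, 8.97 and 7.86, were in exosome 0.5 h replicate 3, untreated 8 h replicate 2, exosome 4 h replicate 1 and exosome 2 h replicate 2, where 8 summed skeletal muscle markers reached 2772, 2212, 3642 and 2354 normalized counts against 525 to 751 in untreated cells at 0 h; their part in Rpl3l was not tested. Their partners Rpl3 and Rpl39 averaged 1446 and 542 normalized counts, which compares presence and not amounts.

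Summed over all 85 members, the share of all normalized counts lay between 1.20% and 2.34%. It was 1.35, 1.20, 1.33 and 1.30% in untreated replicates 1 to 4 at 0 h, and 2.34, 1.8 and 1.45% in untreated replicates 1 to 3 at 8 h. Exosome-treated cells at 8 h had 1.39, 1.39 and 1.44%. At 4 h the shares were 1.46, 1.48 and 1.43% without and 1.68, 1.52 and 1.44% with exosomes, at 2 h 2.10, 1.40 and 1.28% and 1.33, 2.00 and 1.35%, and at 0.5 h 1.41, 1.25 and 1.33% and 1.54, 1.32 and 1.40%. In 5 libraries it was 1.68% or more, and in the other 23 it was 1.54% or less. The 5 were untreated 2 h replicate 1, exosome 2 h replicate 2, exosome 4 h replicate 1 and untreated 8 h replicates 1 and 2, of which 3 belong to batch 1.

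The same 5 libraries stand apart in genes that are no members. Taking each gene against its own median over the libraries, the 83 members had a median log2 deviation of 0.25 to 0.69 in the 5 and of -0.26 to 0.11 in the other 23. The 726 other protein-coding genes with transcripts under 1000 bases had a median deviation of 0.23 to 0.48 in the 5 and of -0.14 to 0.06 in the other 23. Long genes, 2122 with transcripts above 5000 bases, were lower in the 5, by -0.40 to -0.17. Ribosomal protein pseudogenes, 86 of which passed the filter, had median deviations of 0.70, 0.40 and 0.11 in untreated replicates 1 to 3 at 8 h, where the members had 0.69, 0.29 and 0.06. Summed skeletal muscle markers (8 genes) also differed between libraries, with 2355, 2212 and 767 normalized counts in untreated replicates 1 to 3 at 8 h and 525 to 751 at 0 h, where 3 or 4 of the 8 had a value. They summed to 2212 to 3642 in 4 of the 5 libraries, to 959.6 in the remaining 1, and to 2038 and 2772 in exosome 0.5 h replicates 1 and 3, where the member deviations were 0.11 and -0.01. The part of short transcripts, muscle RNA or batch in the results below was not tested beyond the values given beside them. In bulk libraries, fewer cells and less RNA per cell cannot be told apart.

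**Figure D2:**
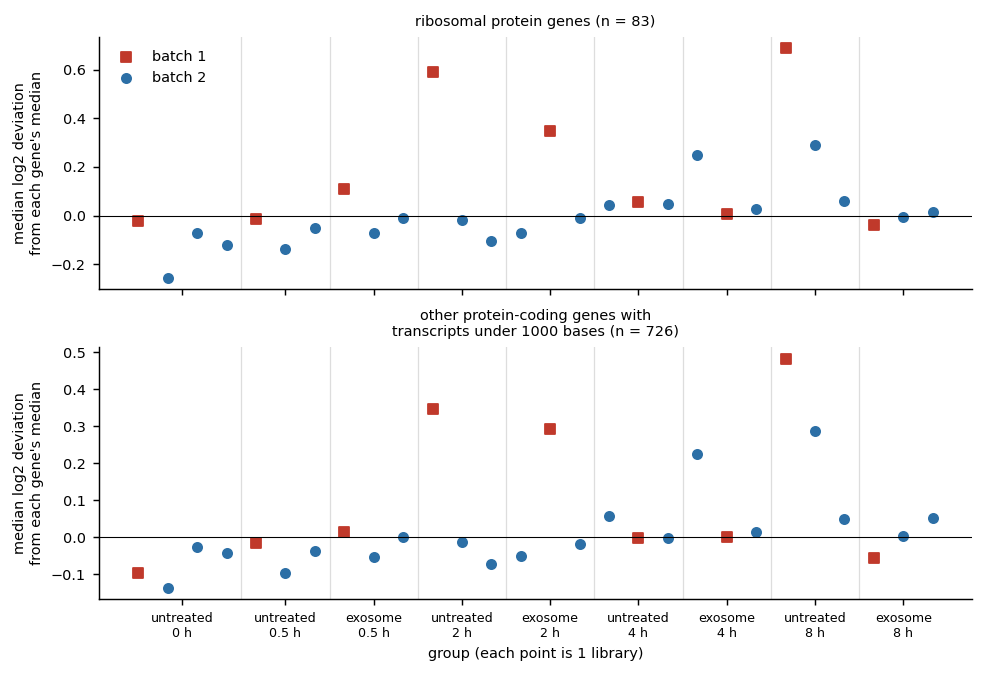
Median log2 deviation of each library from every gene's own median over 28 libraries, for the 83 members (top) and 726 other short genes (bottom), 1 point per library, ordered by group, squares for batch 1 and circles for batch 2. The same 5 libraries are highest in both panels, at 0.25 to 0.69 and 0.23 to 0.48.

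The clearest change of the ribosomal protein genes was between untreated cells at 0 h and at 8 h after fresh medium. Of 83 members tested, 54 rose and 0 fell (limma, adjusted p below 0.05 over all genes; 55 rose by edgeR and 57 by DESeq2), and 75 were higher, with a median log2 fold change of 0.46 against -0.01 for all genes. Over all 14828 genes tested, 15.9% rose and 15.8% fell by limma. The shares over all genes by edgeR and DESeq2 are not given here, so their counts cannot be set against them. The rise took in 21 of 31 small subunit genes (median 0.53) and 28 of 46 large subunit genes (0.41), and 4 of the 5 paralog or variant genes tested (0.55). All 3 libraries at 8 h lay above all 4 at 0 h for 46 members, and for 13.0% of all genes. Other short genes moved as well: 351 of 726 rose (median 0.36), and 806 of 2122 long genes fell (-0.22). Among the members, 37 of 56 with transcripts under 1000 bases rose (median 0.47), and 17 of 27 with longer ones (0.40).

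Rps14, a small subunit protein, was at 4574, 3988, 4759 and 4509.5 normalized counts at 0 h and at 15233, 8862 and 5096 in replicates 1 to 3 at 8 h. Its log2 fold change was 0.95 ± 0.24 (SE), limma adjusted p = 0.00562. The groups did not overlap, and replicate 3 at 8 h lay just above the highest 0 h library. Rpl39, a protein of the exit tunnel (ENSMUSG00000079641.3, chromosome X from 37082520 to 37085402, minus strand), had 519, 262, 397 and 336 at 0 h and 1399, 609 and 435 at 8 h (0.92 ± 0.29 (SE), limma adjusted p = 0.0214). Here replicate 3 at 8 h, of batch 2, lay inside the 0 h range. It was below the batch 1 library at 0 h (519) and above those of batch 2 (262, 397 and 336). Rpl13a (ENSMUSG00000074129.12, chromosome 7 from 45125558 to 45128761, minus strand), a large subunit protein also known from the interferon-gamma-activated inhibitor of translation complex, went from 7986, 8717, 9790.4 and 9536 to 24792, 19517 and 10428 (0.91 ± 0.24 (SE), limma adjusted p = 0.00707). Rps7, a small subunit protein, had 627, 745, 883 and 870.2 at 0 h and 1925, 1691 and 913 at 8 h (0.88 ± 0.29 (SE), limma adjusted p = 0.025). Rps27rt, whose reads may belong to Rps27, had 979, 759, 988 and 1056 at 0 h and 3379, 1901 and 1126 at 8 h (0.99 ± 0.31 (SE), limma adjusted p = 0.0179). In each of these genes replicate 1 was the highest of the 3 libraries at 8 h, replicate 2 came next and replicate 3 was closest to 0 h.

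The stalk, which recruits translation factors, rose in 3 of 4 genes. Rplp1 (ENSMUSG00000007892.7, chromosome 9 from 61913284 to 61914542, minus strand) had 7865, 4934, 5993 and 6038 at 0 h and 18975, 9963 and 7919 at 8 h (0.85 ± 0.18 (SE), limma adjusted p = 0.00244). Its lowest 8 h library, of batch 2, was just above the highest at 0 h, of batch 1. The batch 2 libraries at 0 h had 4934, 5993 and 6038. Rplp2 rose by 0.44 (adjusted p = 0.00628 by limma) and Rplp0, the stalk base, by 0.34 (adjusted p = 0.01). Rpl12, which anchors the stalk, did not pass (0.37, adjusted p = 0.138). Of the 8 exit tunnel genes 5 rose, and of the 4 listed messenger entry and decoding genes with values, 3 rose. Rps3 (ENSMUSG00000030744.13, chromosome 7 from 99477896 to 99483738, minus strand), at the messenger entry, had 13315, 11908, 12922 and 12610.5 at 0 h and 33978, 24778 and 14766 at 8 h (0.84 ± 0.20 (SE), limma adjusted p = 0.0042). Rpsa, the laminin receptor protein of the small subunit, rose by 0.73 (adjusted p = 0.00404) and Rps27a, made as a fusion with ubiquitin, by 0.55 (adjusted p = 0.0438). Rpl5 and Rpl11, which with the small RNA of the large subunit bind the p53 regulator Mdm2, did not pass (-0.06, adjusted p = 0.661, and 0.26, adjusted p = 0.192), nor did Rps6 (-0.10, adjusted p = 0.627).

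Rpl4 (ENSMUSG00000032399.7, chromosome 9 from 64173375 to 64178666, plus strand) and Rpl8 (ENSMUSG00000003970.8, chromosome 15 from 76904078 to 76906314, plus strand), large subunit proteins with high levels and among the smallest residual spreads, rose by less but beyond their spread. Rpl4 had 23372, 20561, 21049 and 20503 at 0 h and 31553, 26747 and 23907 at 8 h (0.33 ± 0.08 (SE), limma adjusted p = 0.00413). Rpl8 had 20065, 16808, 17076 and 17302 at 0 h and 25270.4, 22143 and 20137 at 8 h (0.32 ± 0.06 (SE), limma adjusted p = 0.00191). In both genes each library at 8 h was above each at 0 h, but replicate 3 lay only just above replicate 1 at 0 h. Replicate 1 at 0 h is of batch 1 and replicate 3 at 8 h of batch 2. The batch 2 libraries at 0 h had 20503 to 21049 for Rpl4 and 16808 to 17302 for Rpl8. Among paralogs, Rpl22 rose by 0.61 (limma adjusted p = 0.0111) and Rpl22l1 had 0.55 (adjusted p = 0.0585, not past the threshold), Rpl36a rose by 0.63 and Rpl36al by 0.39, and Rpl7 rose by 0.40 and Rpl7l1 by 0.44. Rps27l rose by 0.71, and Rps19bp1 rose by 0.34. Rpl3, Rpl10 and Rps4x did not pass (0.06, -0.19 and 0.20).

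The count of rising members was smaller without the libraries with raised short genes. Without those 5 libraries, which leaves replicate 3 as the lone library of untreated cells at 8 h, assumed to vary like the other groups, 2 members rose (Rps26 and Rps4x) and 1 fell (Rpl10a), against 0.688% and 5.83% of all genes. The median was then 0.20. Without replicate 1 at 8 h alone 10 rose (6.58% of all genes), and without replicate 2 alone 29 (6.39%). Rpl4, Rpl8, Rplp1, Rplp2, Rps3 and Rps9 were among the 10. With each library corrected for its trend with transcript length, 39 rose and 1 fell (median 0.28), against 12.9% of all genes rising. In batch 2 alone (2 libraries at 8 h against 3 at 0 h) 42 rose, 41 of them among the 54, against 13.6% of all genes, with a median of 0.35, and in batch 1 (1 against 1, no test) the median was 0.71.

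**Figure D3:**
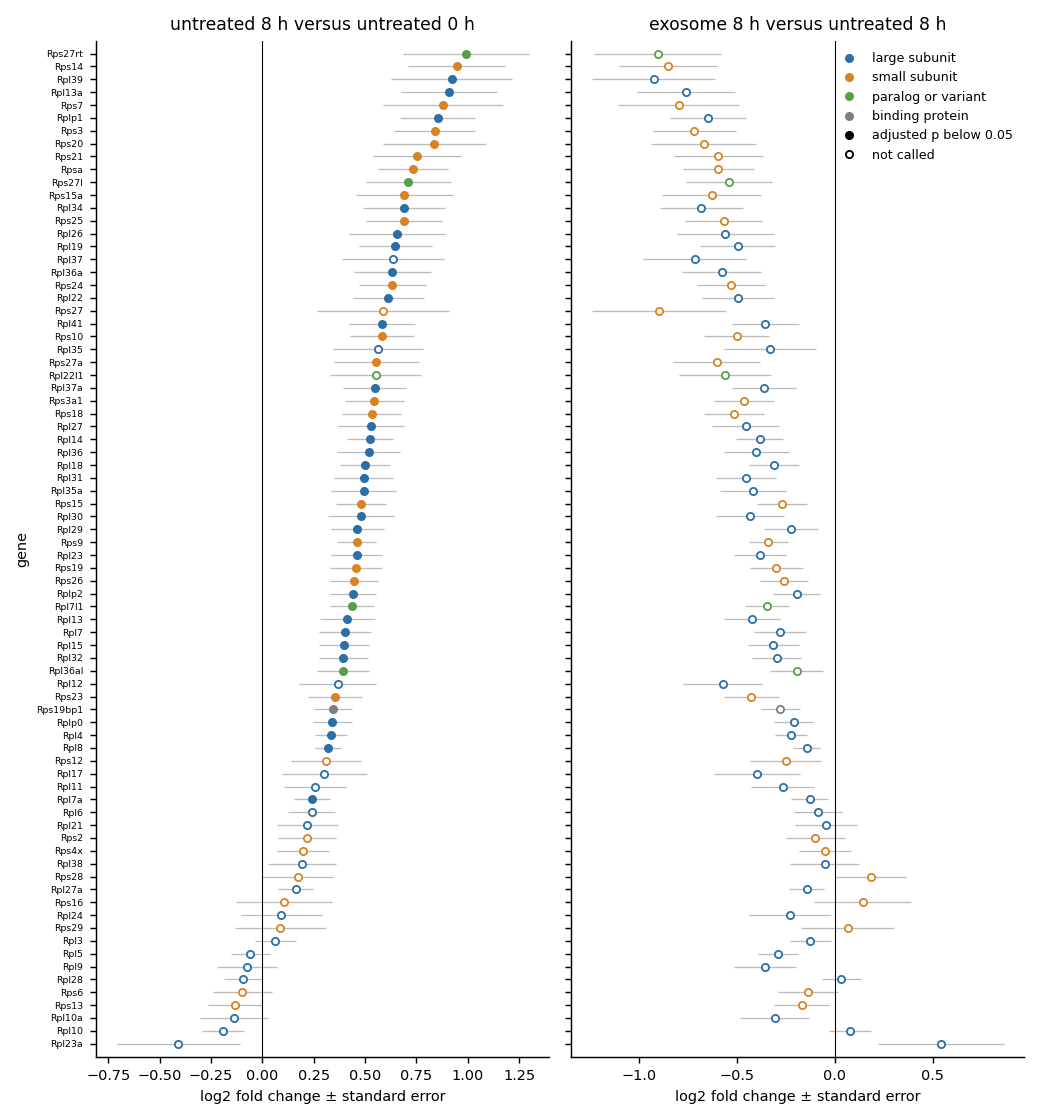
Log2 fold change ± standard error (horizontal axes) of 78 members for untreated cells at 8 h against 0 h (left) and for exosome-treated against untreated cells at 8 h (right), in the order of the left panel; filled points have a limma adjusted p below 0.05. On the left 51 points are filled, on the right none; both comparisons use the same 3 untreated libraries at 8 h.

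At earlier times after fresh medium the members moved less. At 0.5 h 0 of 83 members passed the limma test (0 also at an unadjusted p under 0.05, and 0 by edgeR and by DESeq2), and the median was 0.04. Over all 14828 genes limma called 0.189%, and 495 had an unadjusted p under 0.05. At 2 h 2 members rose, Rpl41 among them, where 0.83% of all genes rose, and the median was 0.28. Rpl41 (ENSMUSG00000093674.7, chromosome 10 from 128548114 to 128549305, minus strand) had 2441, 1617, 2231 and 1979 normalized counts at 0 h and 5346, 2579 and 2384 at 2 h (0.61 ± 0.16 (SE), limma adjusted p = 0.0459). Its highest value was in replicate 1 at 2 h, the library with raised short genes. The lowest 2 h library, at 2384 and of batch 2, was below the highest at 0 h, at 2441 and of batch 1. It was above the batch 2 libraries at 0 h (1617, 2231 and 1979). Without the 5 libraries Rpl41 had 0.33 (limma adjusted p = 0.105). Rpl10a, a large subunit protein, then passed (0.41, adjusted p = 0.0137), where 2 members rose, against 1.36% of all genes rising. Leaving out untreated 2 h replicate 1, or replicate 2 or 4 at 0 h, left 0 members called, and leaving out replicate 1 or 3 at 0 h left 1. The median at 2 h was 0.07 without the 5 libraries, and 0.68 in batch 1 (1 against 1) against 0.09 in batch 2.

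At 4 h, where no untreated library had raised short genes, the shift was smaller but even between replicates. With all libraries 0 of 83 members passed by limma and 0 by edgeR, and limma called 1.19% of all genes. An unadjusted limma p under 0.05 was found for 21 members and for 1733 of all 14828 genes. DESeq2 called 4 members, and its share over all genes is not given here. The median was 0.16, with 63 members higher, and the median deviations of the 3 untreated libraries at 4 h were 0.04, 0.06 and 0.05. All 3 libraries at 4 h lay above all 4 at 0 h for 25 members, against 4.74% of all genes. Without the 5 libraries, none of which is in these 2 groups, 22 members rose, against 2.5% of all genes, with a median of 0.17. The libraries at 0 h and 4 h were the same in both fits, and the median hardly moved. What differed was the spread and batch term, estimated without the 5 libraries, which were set after seeing the data. In batch 2 alone 13 rose against 2.11%. The median was 0.20 in batch 2 and 0.12 in batch 1 (1 against 1, no test). Rpl41 had 2686, 3466 and 3434 normalized counts at 4 h (0.60 ± 0.16 (SE), limma adjusted p = 0.0658; 0.62 with adjusted p = 0.000154 without the 5 libraries). Every Rpl41 library at 4 h was above every one at 0 h.

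**Figure D4:**
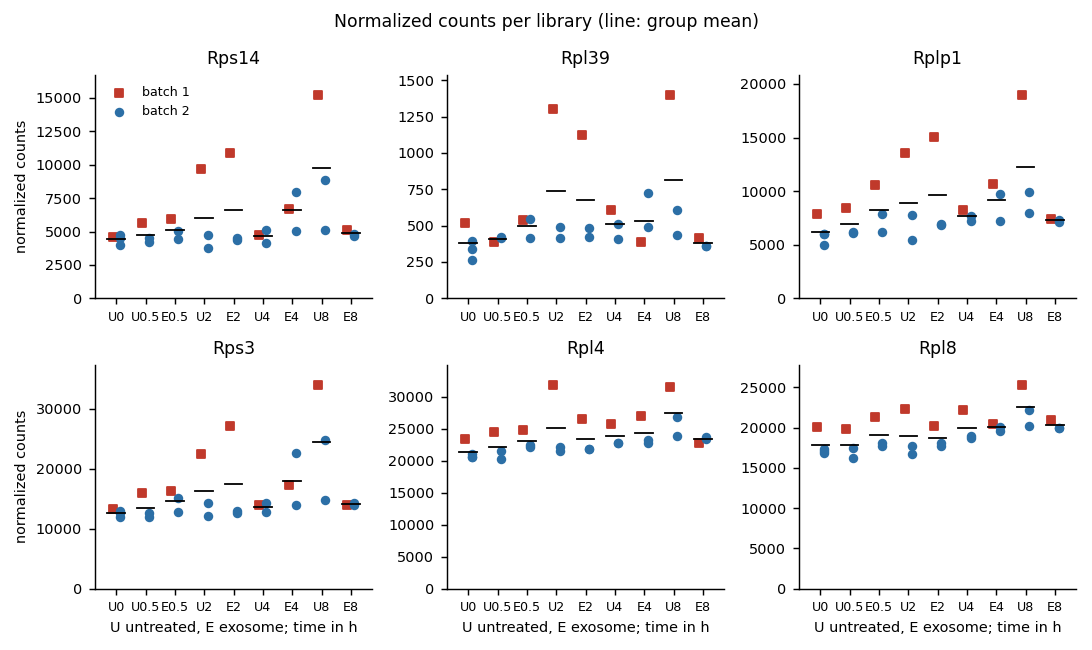
Normalized counts (vertical axes, from 0) in every library for 6 members, by group (horizontal axis, U untreated and E exosome-treated, with hours), squares for batch 1, circles for batch 2 and a line at each group mean. Rps14, Rpl39, Rplp1 and Rps3 are highest in a few libraries at 2 and 8 h, and Rpl4 and Rpl8 vary by at most 1.57 times between libraries.

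With all libraries, limma and edgeR called no member changed by exosome treatment at any time, and DESeq2 called members only at 8 h, as given below. At 0.5 h 0 of 83 were called by limma, edgeR or DESeq2, with a median of 0.08, and limma called 0.243% of all genes. Unadjusted limma p under 0.05 was found for 5 members and 639 of all 14828 genes. At 2 h 0 members were called by each of the 3 tools (limma called 0.189% of all genes), with a median of -0.04. Unadjusted, limma gave 0 members and 245 genes. At 4 h 0 were called by each (all genes 0.155%), with a median of 0.04, and unadjusted 3 members and 645 genes. Over the mean of the 4 times 0 were called by each (all genes 0.459%), with 75 of 83 members lower at a median of only -0.07. Unadjusted, it was 2 members and 673 genes. The F test for a difference of the exosome effect between times called 0 members by limma and by edgeR, and by limma 0.0% of all genes. Its unadjusted limma p was under 0.05 for 20 members and 1873 genes. Without the 5 libraries the medians at 2 h and 4 h changed sign, to 0.01 and -0.04. In batch 2 alone the mean effect had a median of 0.00 with 42 members higher and 41 lower, and in batch 1 alone -0.20.

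The members with the smallest p at each time show the scale. At 0.5 h Rps6 had 85.1, 99.5 and 92.4 normalized counts untreated and 57.3, 84.1 and 74.0 treated (-0.37 ± 0.15 (SE), limma adjusted p = 1), and the others were Rpl29 (0.45) and Rpl28 (0.26), both large subunit proteins. For Rps6 the highest treated library was just below the lowest untreated one. At 2 h they included Rpl6 (-0.19) and Rps29 (-0.35). At 4 h Rpl24 had 17.2, 19.5 and 16.6 untreated and 26, 26.3 and 27.0 treated (0.55 ± 0.21 (SE), limma adjusted p = 0.92), with each treated library above each untreated one. Over the mean of the times they included Rpl6 (-0.16) and Rpl41 (-0.16), and for the F test Rps18, Rps10 and Rps14 (limma adjusted p = 0.366 each).

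At 8 h most members had lower values in the treated libraries, with calls by DESeq2 and none by limma or edgeR on all libraries. Of 83, 76 were lower in treated cells, at a median of -0.36 against 0.00 for all genes. An unadjusted limma p under 0.05 was found for 56 of the 83 members and for 3968 of all 14828 genes. After adjustment 0 members passed by limma or edgeR, and limma called 0.452% of all genes. DESeq2 called 18 members lower, against 3.65% of all genes. All 3 treated libraries lay below all 3 untreated ones for 34 members and for 7.79% of all genes. Rps3 had 33978, 24778 and 14766 untreated and 13896, 14027 and 14303 treated (-0.72 ± 0.21 (SE), limma adjusted p = 0.0772). Rps14 had 15233, 8862 and 5096 and 5145, 4692 and 4817 (-0.85 ± 0.25 (SE), limma adjusted p = 0.0772), and Rps9, of the small subunit, 10399.9, 8062 and 6926 and 6304, 6636 and 6832 (-0.34 ± 0.10 (SE), limma adjusted p = 0.0772). The treated libraries were close together and the untreated ones spread widely. Untreated replicate 3 was nearest to the treated. For Rps14 it lay above the 2 treated libraries of batch 2, its own batch, and below that of batch 1. This comparison and that of untreated 8 h with 0 h share the untreated libraries at 8 h, 2 of which are among the 5 with raised short genes. Without the 5 libraries the median was -0.07, with correction for transcript length -0.23, and in batches 1 and 2 taken apart -0.72 (1 against 1) and -0.19 (2 against 2). Without untreated 8 h replicate 3 alone, 50 members were called lower by limma, against 12.8% of all genes, and the F test called 15, against 9.08%.

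**Figure D5:**
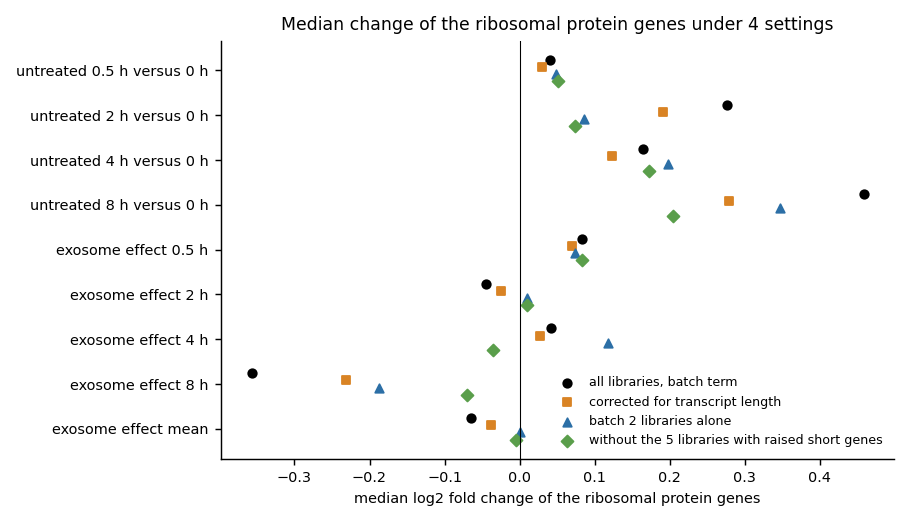
Median log2 fold change of the members tested (horizontal axis) in 9 comparisons, with all libraries, with correction for transcript length, in batch 2 alone and without the 5 libraries with raised short genes. The median at 8 h moves from 0.46 to 0.20 in untreated cells and from -0.36 to -0.07 for exosomes when the 5 libraries are left out.

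Between the batches 50 of 83 members differed, near the share of all genes (8547 of 14828), but most of these members were lower in batch 2. In batch 2, 45 members were lower and 5 higher than in batch 1 (limma, with group means in the model), against 29.2% and 28.5% of all genes, and the median was -0.20. The largest falls were Rps27rt (-0.63), Rplp1 (-0.59), Rpl39 (-0.56), Rpl35 (-0.52), Rpl37 (-0.52) and Rps14 (-0.51). The 5 rises were Rpl5 (0.26), Rpl27a (0.25), Rpl9 (0.24), Rpl28 (0.20) and Rpl6 (0.17), all of the large subunit. Without the 5 libraries, 28 members were lower (27.5% of all genes) and 10 higher (27.3%), and the median was -0.04. With correction for transcript length 43 were lower and 10 higher. The share over all genes under that correction is not given here, so these counts cannot be set against it. Markers of other cells also separated the batches: 4 B cell markers summed to 39.7 to 82.2 normalized counts in the 9 libraries of batch 1 and to 1.72 to 13.8 in the 19 of batch 2. The 14 T cell markers summed to 164173 to 195366 and to 133178 to 153767, and the part of either in the batch difference was not tested. Genes of ribosome assembly went the other way: 26 of 30 listed were higher in batch 2 (median 0.44) and 0 lower.

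Spread beyond group and batch was wider for members than for all genes at a mean of at least 100 normalized counts. The residual SD on the log2 scale had a median of 0.22 over the 77 members at that level, and of 0.12 over all 10113 genes. It was smallest for Rpl8 (0.065), Rpl4 (0.092) and Rpl28 (0.10) and largest for Rps27rt (0.46), Rps27 (0.46) and Rpl39 (0.45). The highest library was 5.35 times the lowest for Rpl39 and 1.55 times for Rpl8.

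Genes tied to ribosomes were read from 5 lists, beside the 15.9% of all genes that rose and 15.8% that fell in untreated cells at 8 h against 0 h. Of the 726 short protein-coding genes that are no members, 351 rose there (median 0.36). The part of transcript length in the values of the lists was not tested. Mitochondrial ribosomal protein genes, whose ribosomes make the proteins encoded in mitochondrial DNA, rose in 60 of 82 cases in this comparison (median 0.37; Mrpl14, Mrpl41 and Mrpl12 the most) and fell in 0. Of 20 other genes with TOP messengers 8 rose and 1 fell (median 0.22): the elongation factor subunit Eef1b2 by 0.55 and the small subunit protein Rack1 by 0.53, while Hnrnpa1, a splicing factor, fell by 0.35. Of 30 ribosome assembly genes 8 rose, with Nip7 (0.74), Nop10 (0.59) and Nhp2 (0.50) in front, and 1 fell, the assembly ATPase Nvl (-0.23), for a median of 0.13, and that count is not far above the share of all genes. Of 9 host transcripts of small nucleolar RNAs with TOP starts 2 rose, Epb41l4aos (0.65) and Snhg8 (0.52), a share near that of all genes. Of 86 ribosomal protein pseudogenes, a list added after the data were seen, 44 rose and 1 fell (median 0.57), and reads of the members and of these copies cannot be fully told apart. Exosome treatment at 8 h gave medians of -0.24, -0.16, -0.07, -0.51 and -0.41 for these 5 lists in that order, with 1 pseudogene (Rpsa-ps2) called and 0 of the others.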

How the data were processed

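RNA of CTLL2 cells was extracted with TRIzol and sequenced as paired 50-base reads from TruSeq libraries, per the labels' protocols. Per the submitters' processing notes, CASAVA 1.8.4, STAR 2.4.2, featureCounts 1.5.0 and DESeq2 in R 3.3.2 were used, with GRCm38.p2; the sources used here do not name the strandedness, the annotation release or the rule for reads with several matches. The authors deposited 1 table of normalized counts, a signal in which each library's gene counts are divided by its size factor (0.401 to 1.59 here). Whole reads were recovered from its steps for 100% of values, within 0.01 read, and 6072984 to 24085812 reads per library resulted, so that 3 reads are 1.88 to 7.47 normalized counts.

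Of 30608 gene IDs, 30403 matched GENCODE M21. Genes with at least 10 normalized counts in at least 3 libraries were kept (14828 genes, 83 of 85 members). On log2(normalized count + 1), limma 3.58.1 (with trend) was fitted with 9 group means and batch over all 28 libraries, leaving 18 residual degrees of freedom; p-values were two-sided and Benjamini-Hochberg adjusted over all genes, with calls below 0.05. Fold changes on that scale understate changes of low genes. No label says that replicates were separate cultures, so the p-values measure the spread between these samples. edgeR 4.0.16 and DESeq2 1.42.0 on the recovered reads were alternatives. Fits were tested on simulated data. Named genes were the 6 largest called rises and falls per comparison, or, with none called, the 3 of lowest p, the 5 highest and lowest levels per length, the 3 smallest and largest residual SDs, and a list of family pairs, stalk and other members; the 6 named of those rising without 1 library and Rpl10a, Rps4x and Rps26 were added after their values were seen. The 5 libraries with raised short genes (median deviation above 0.1) were also set after seeing the data. Members and lists were chosen with earlier results of these data known. Replicate numbers were not used to pair libraries: deviations of the 12 same-numbered pairs correlated between -0.54 and 0.73, and 2 of the pairs lay in different batches. Values of some members are not reported here.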

Additional observations from a re-analysis of the deposited data

Results flagged for a closer look

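In untreated cells at 0 h, the only group of 4 libraries, the highest or lowest library of 54 quantities (levels of named members and the summed share) was compared with the other 3 by Dixon's ratio at its 95% critical value. Chance gives about 1 in 20 such cases. In 5 quantities 1 library stood apart. Rpl24, of the large subunit, had 34.6 normalized counts in replicate 1 and 20.4 to 21.3 in the others. Rpl5, of the 5S particle, had 358 in replicate 1 and 464 to 473 in the others. Rpl8 had 20065 in replicate 1 and 16808 to 17302 in the others. Replicate 1 is the batch 1 library of this group. Rpl36al had 1007.5 in replicate 2 and 1285 to 1303 in the others. Rps2, of the small subunit, had 9556 in replicate 4 and 9410 to 9429 in the others, a narrow spread throughout.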

How the results depend on the processing

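Counts are members called of those tested, and this paragraph gives no shares over all genes beside them. For exosomes at 8 h, 0 became 18 with DESeq2. For untreated 2 h against 0 h, 2 became 4 with DESeq2, 1 in batch 2 alone or with the length correction, and 0 without the low-value filter, without a batch term or with the replicate block. For untreated 4 h, 0 became 4 with DESeq2, 13 in batch 2 alone, 1 with the length correction and 22 without the 5 libraries. For untreated 8 h, 54 became 26 without a batch term, 7 with the replicate block and 3 without the 5 libraries. The block moved no other count past 1.5 times, although the numbers do not pair the libraries. Leaving out 1 library at a time gave 0 to 50 (exosome 8 h), 0 to 15 (exosome effect by time), 0 to 3 (untreated 2 h), 0 to 1 (4 h), 10 to 62 (8 h) and 45 to 52 (batch). The mean share of members, taken without the 20 most abundant other genes, was 1.37% (untreated 0 h), 1.41% (0.5 h), 1.55% (4 h) and 1.49% (exosome 8 h), and without paralogs and variants 1.41% (untreated 4 h) and 1.36% (exosome 8 h). The cause of these moves was not tested. Of the alternative values for called named members, 506 kept direction and call and 53 kept direction only; none changed sign. The length correction, the fit without the 5 libraries and batch 1 alone were chosen after seeing the data. DESeq2 was not run for the exosome effect by time. Rpl39l lay below the value of 3 reads in every library.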

Other observations

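Rpl10a, a large subunit protein picked after its values were seen, moved apart from most members. It had 624, 705, 688 and 643 normalized counts in untreated cells at 0 h, 809, 1002 and 800 at 2 h, and 849, 661 and 392.5 at 8 h in replicates 1 to 3. Exosome-treated cells had 803, 955 and 756 at 2 h and 550, 426 and 497 at 8 h. All libraries at 2 h were above all at 0 h, and all 3 treated libraries at 8 h were below all at 0 h. Its lowest library was untreated 8 h replicate 3, where the members' median deviation was 0.06.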
